A study of Ovis aries with 15 samples.

Results

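The genes described here are the amino acid transporters of the solute carrier (SLC) families in sheep kidney. They were taken as every gene in the deposited table whose symbol starts with SLC1A, SLC3A, SLC6A, SLC7A, SLC36A, SLC38A or SLC43A, with SLC7A11 and SLC38A3 left out, which gave 56 of 25592 genes. The set holds 6 genes of SLC1, 2 of SLC3, 19 of SLC6, 12 of SLC7, 4 of SLC36, 10 of SLC38 and 3 of SLC43. One of them, SLC7A6OS, carries the prefix only because it lies opposite SLC7A6 and is not a transporter, so 55 members are transporters.

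Kidney RNA was sequenced from male Dorper × Small-tailed Han crossed sheep of 4 months, which all ate the same total mixed ration for 21 d. The CON group received the ration alone, the AFB1 group ate it with aflatoxin B1 (AFB1, a mould toxin) at 500 µg/kg dry matter, and the AFB1_CUR group ate it with the same AFB1 dose plus curcumin (CUR) at 800 mg/kg dry matter. Each group had 5 libraries. The sheep shared a barn and were penned in pairs, and the labels do not tie a library to a pen, so the p-values measure the spread between these libraries. The design asks how the transporters differ with AFB1, and how they differ when CUR is added.

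The proximal tubule takes up almost all of the amino acids filtered by the glomerulus. Sodium-coupled carriers and exchangers in the apical brush border bring them into the cell, and a second set of carriers in the basolateral membrane passes them on to the blood. Several of these carriers work only as pairs: a heavy chain of the SLC3 family brings a light chain of the SLC7 family to the membrane, and collectrin (CLTRN) does the same for carriers of the SLC6 family.

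Total counts per library ranged from 50255295 to 68747047, with a median of 56549141. One library went against its label. In the library labelled AFB1 replicate 1, the summed FPKM (a level corrected for gene length and library depth) of 12 hepatocyte markers was 46883, against 61.1 to 168 in the other 14. The sum over 8 proximal tubule markers was 34.8 there, against 1367 to 3725, and the sum over 5 markers of the loop of Henle and distal tubule was 0.739, against 422 to 2177. Group values below therefore leave this library out (5 CON, 4 AFB1 and 5 AFB1_CUR libraries), and its own values are given separately. A pair of further libraries stood apart by the summed FPKM of 5 leukocyte markers, which was 93.3 in AFB1 replicate 2 and 188 in AFB1_CUR replicate 2, against 7.67 to 31.3 in the other 12 kidney libraries.

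A few members held most of the signal. By the median FPKM over the 14 kidney libraries, 4 members were at 100 or more, 11 between 10 and 100, 15 between 1 and 10, and 26 under 1. The first 4, SLC7A7, SLC6A18, SLC1A5 and SLC3A1, made up 61.4% to 77.8% of the summed FPKM of the set in each kidney library, and 2.497% in the library labelled AFB1 replicate 1. No member was at a count of 0 in all 15 libraries, but 18 stayed under an FPKM of 1 in every one of them. These included SLC6A2, SLC6A3 and SLC6A4, which carry noradrenaline, dopamine and serotonin, the GABA transporter SLC6A13, the glycine transporter SLC6A5, and SLC36A2, SLC36A3, SLC7A3 and SLC7A14.

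**Figure D1:**
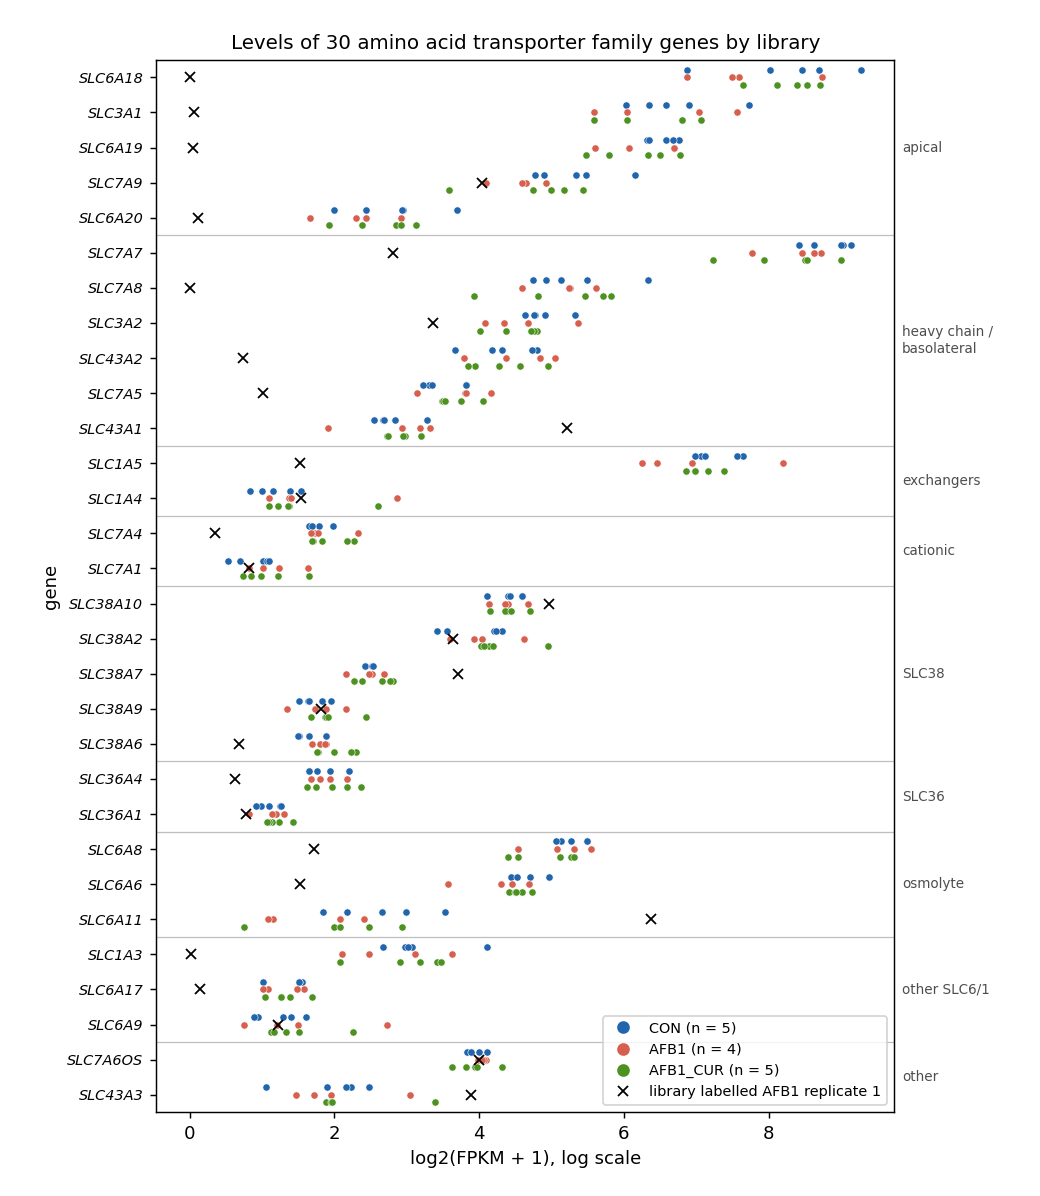
Level of the 30 members with a median FPKM of at least 1, as log2(FPKM + 1), with 1 point per kidney library coloured by group and a cross for the library labelled AFB1 replicate 1. The points of the 3 groups overlap in every row, while the crosses of SLC6A18, SLC3A1, SLC6A19 and SLC7A8 lie at or near 0.

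The apical carriers were led by SLC6A18, a sodium- and chloride-coupled carrier of small neutral amino acids of the brush border, with a median FPKM of 305. Its FPKM was 415, 257, 116, 352 and 618 in CON, 191, 179.9, 116 and 425 in AFB1, and 333, 199.7, 276, 369.7 and 416 in AFB1_CUR. Each group thus spanned much of the same range, and CON held both the lowest and the highest library. SLC6A19, the main sodium-coupled carrier of large neutral amino acids in the brush border, varied less. It measured 78.7, 80.7, 108, 95.2 and 101 in CON, 47.4, 103, 66.4 and 103 in AFB1, and 89.1, 43.4, 79.7, 108.5 and 54.6 in AFB1_CUR. The lowest values of SLC6A19 were in AFB1 replicate 2 and AFB1_CUR replicate 2, the libraries with the high leukocyte markers, and the groups overlapped.

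SLC3A1 and SLC7A9 form the apical exchanger of cystine and the cationic amino acids, in which SLC3A1 is the heavy chain and SLC7A9 the light chain. The FPKM of SLC3A1 was 94.7, 80.3, 64.4, 119 and 210.2 in CON, 131, 64.9, 47.1 and 187 in AFB1, and 111, 47.2, 64.9, 133 and 111 in AFB1_CUR. That of SLC7A9 was 39.5, 28.8, 26.2, 43.6 and 70.5 in CON, 16.1, 24.0, 23.1 and 29.3 in AFB1, and 42.1, 10.998, 25.8, 35.1 and 30.9 in AFB1_CUR. In 3 of the 4 AFB1 libraries SLC7A9 was below every CON library, and the fourth lay above 2 of the CON libraries. SLC6A20, the carrier of proline and other imino acids, was lower in level, with a median FPKM of 5.32 and a range of 2.18 to 11.9. SLC1A1, the apical carrier of glutamate and aspartate, had a median of 0.575 and a range of 0 to 3.82, with its highest value in AFB1 replicate 2.

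On the basolateral side, SLC7A7 was the member with the highest level of the set, with a median FPKM of 382. It is the light chain that hands cationic amino acids to the blood in exchange for neutral ones. Its FPKM was 395, 523, 342, 560.5 and 511 in CON, 216, 421, 351 and 394 in AFB1, and 510.1, 149, 363, 369 and 244 in AFB1_CUR. The 3 lowest values were in AFB1_CUR replicate 2, AFB1 replicate 2 and AFB1_CUR replicate 5, and the groups overlapped. SLC7A8, the light chain that exchanges neutral amino acids, had a median of 37.1 (14.3 to 79.4), and the common heavy chain SLC3A2 a median of 25.6 (15.2 to 40.1). For both, the lowest library was AFB1_CUR replicate 2.

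The other basolateral members were at lower levels. SLC43A2, which lets branched-chain and aromatic amino acids leave the cell by facilitated diffusion, had a median FPKM of 19.3 (11.7 to 32.2). SLC7A5, the large neutral amino acid exchanger found in growing cells, had a median of 11.5 (7.85 to 16.97), and SLC7A6, a second light chain for cationic amino acids, one of 0.636 (0.334 to 2.51). The highest values of SLC7A6, 2.51 and 1.81, were in AFB1 replicate 2 and AFB1_CUR replicate 2. SLC7A6 and SLC7A6OS lie on opposite strands of chromosome 14 and overlap, and the strand setting of the counting is not given in the sources used here, so reads of the shared stretch cannot be told apart. SLC7A6OS had a median of 14.8 (11.4 to 18.9).

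Of the neutral amino acid exchangers, SLC1A5, which also carries glutamine, had a median FPKM of 129. It measured 132, 125, 139, 199 and 189 in CON, 86.7, 122, 75.0 and 292 in AFB1, and 166, 115, 142, 126 and 125 in AFB1_CUR. AFB1 held both its lowest and its highest library, replicates 4 and 5. SLC1A4, its relative for alanine, serine and cysteine, had a median of 1.58. It was 6.27 in AFB1 replicate 2 and 5.08 in AFB1_CUR replicate 2, against 0.783 to 1.91 in the other 12 kidney libraries.

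Among the carriers of osmolytes and related compounds, the creatine carrier SLC6A8 had a median FPKM of 35.9 (20.1 to 45.7). SLC6A6 carries taurine, an osmolyte of the medulla. Its FPKM was 20.7, 30.1, 25.0, 22.1 and 30.1 in CON, 24.9, 18.8, 10.9 and 20.9 in AFB1, and 23.2, 20.2, 21.6, 25.6 and 21.9 in AFB1_CUR. AFB1 replicate 4 was the lowest of all, and the AFB1_CUR libraries lay within the CON range except for replicate 2. The betaine carrier SLC6A12 had a median of 0.336 and reached 1 in a single library, AFB1 replicate 2, at 1.71. The GABA carrier SLC6A11 had a median of 3.38 and a range of 0.679 to 10.6.

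In the SLC38 family of sodium-coupled carriers of glutamine and other neutral amino acids, the leading members were SLC38A10 with a median FPKM of 20.1 (16.3 to 25.1) and SLC38A2, the amino acid carrier that responds to starvation, with a median of 16.1 (9.73 to 29.9). SLC38A7 and SLC38A9, which act at the lysosome, had medians of 4.72 and 2.60, and SLC38A6 one of 2.45. SLC38A4 was near 0 in kidney, with a median of 0.0677. Of the cationic amino acid family, SLC7A4, SLC7A1 and SLC7A2 had medians of 2.36, 1.02 and 0.864. The lysosomal proton-coupled carrier SLC36A1 had a median of 1.20 and its relative SLC36A4 one of 2.67. SLC36A1 lies on chromosome 5 beside SLC36A2 and SLC36A3, which were both under an FPKM of 1 in all 15 libraries.

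Some members lie side by side in the genome, with like or unlike levels. SLC6A18 and SLC6A19, on chromosome 16 from 71212422 to 71227567 and from 71230414 to 71247167, were both high. SLC38A2 and SLC38A1 are neighbours on chromosome 3, with medians of 16.1 and 0.854, and SLC38A4 lies next to them. The start and end positions are those of the file. For 55 of the 56 members they equal the RefSeq annotation of the assembly ARS-UI_Ramb_v3.0, the exception being SLC6A20.

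Single libraries held many of the highest and lowest values. Among the 30 tested members, AFB1_CUR replicate 2 held the highest value for 8, among them SLC38A2, SLC38A9, SLC43A3 and SLC7A1, and the lowest for 8, among them SLC7A7, SLC7A8, SLC7A9, SLC6A19 and SLC3A2. CON replicate 5 held the highest value for 7, namely SLC6A18, SLC3A1, SLC7A9, SLC6A20, SLC6A6, SLC6A11 and SLC1A3. AFB1 replicate 4 held the lowest for 6, including SLC3A1, SLC6A20 and SLC1A5. The proximal tubule marker sum was 3642 in CON replicate 5, 1472 in AFB1_CUR replicate 2, 1367 in AFB1 replicate 2 and 2027 in AFB1 replicate 4. It was higher still in CON replicate 4 (3715) and AFB1 replicate 5 (3725), which did not hold the highest value of any tested apical carrier. In CON replicate 2, which held no highest or lowest value, it was 1948. The part of tubule or leukocyte content in these differences was not tested, and in whole-tissue RNA fewer tubule cells and less RNA per tubule cell cannot be told apart.

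**Figure D2:**
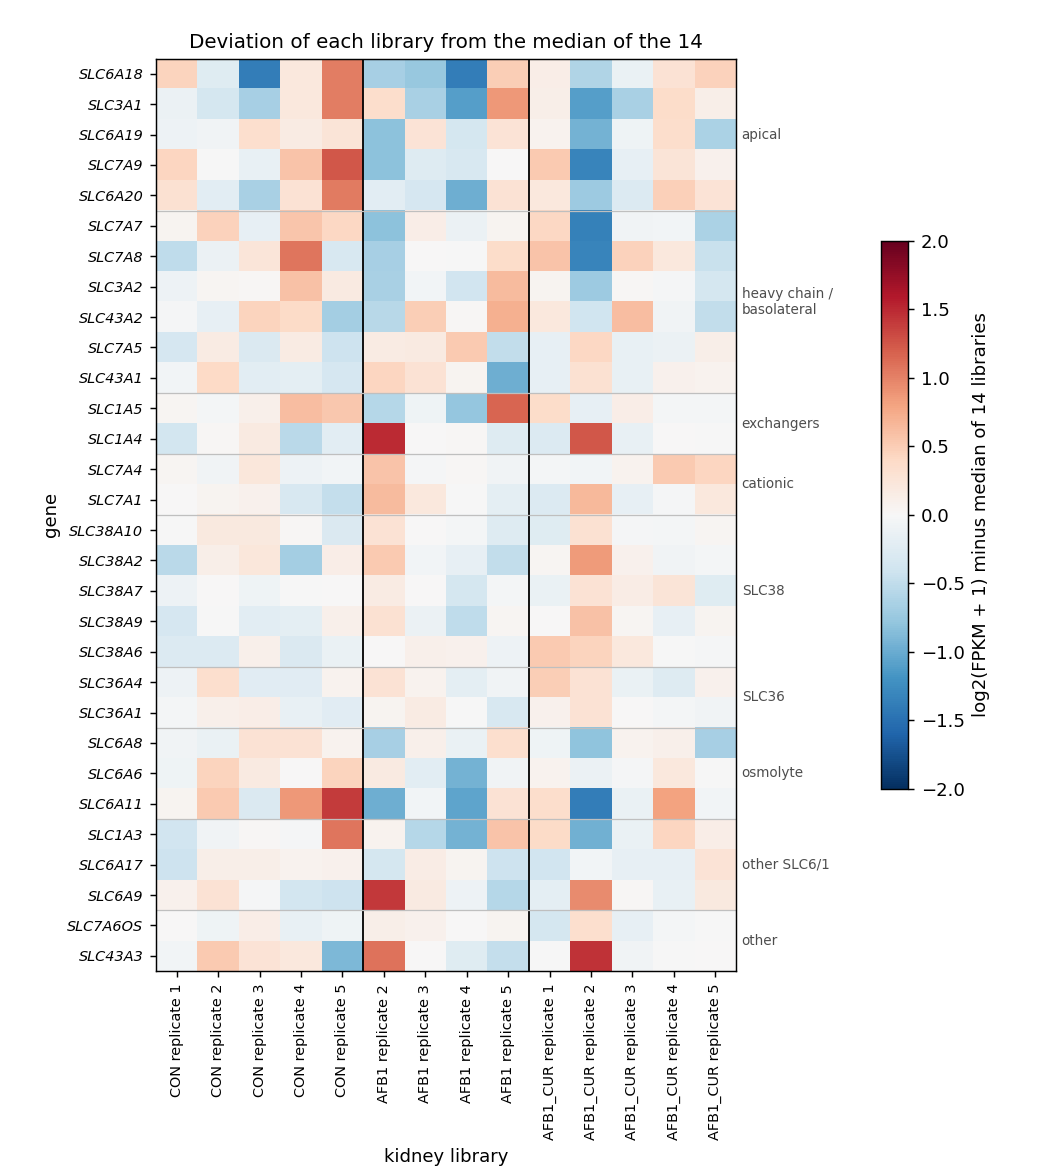
Deviation of each kidney library (columns) from the median of the 14 libraries on log2(FPKM + 1), for the 30 tested members (rows) grouped by role, with red above and blue below the median. AFB1 replicate 2 and AFB1_CUR replicate 2 show blue for most apical and basolateral carriers and red for SLC1A4, SLC6A9 and SLC43A3, and CON replicate 5 shows red for SLC6A18, SLC3A1, SLC7A9 and SLC6A20.

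Between the AFB1 and CON groups, SLC7A9 was the member that fell in AFB1 by the thresholds used, and no member rose. A call needed a fold change over 1.5 with p under 0.05 before adjustment. SE below is an approximate standard error: the size of the log2 fold change divided by the square root of its F statistic in edgeR. The test was edgeR's quasi-likelihood test, fitted to the 13162 genes that reached an FPKM of 1 in 5 or more of the 14 libraries, and 30 of the 56 members passed this filter while 26 did not. Of the 30, 1 was called. Of all tested genes 1.76% were called, 0.653% as higher and 1.11% as lower, so a count of 1 among 30 does not set the transporters apart. The gene is at 42766957 to 42798802 of chromosome 14. The mean FPKM was 41.7 ± 17.6 in CON (SD, n = 5) and 23.1 ± 5.44 in AFB1 (SD, n = 4). This gave a log2 fold change of -0.84 with an SE of 0.39 (edgeR, unadjusted p of 0.049 and adjusted p = 0.957 by Benjamini-Hochberg over all tested genes). The call rests on single libraries. It was lost when CON replicate 1, 4 or 5 or AFB1 replicate 2, 3 or 4 was left out, with values between -0.86 and -0.57, and also without both libraries with high leukocyte markers, at -0.67. The number of members called was 0 without CON replicate 1, 4 or 5 or AFB1 replicate 2 or 4, and 3 without CON replicate 3, where 1.55% to 1.7% and 2.1% of all tested genes were called. It was 8 without AFB1 replicate 5, namely SLC1A4, SLC6A9, SLC1A5, SLC3A2, SLC6A11, SLC6A18, SLC6A20 and SLC7A9. Without that library the share of all tested genes called also went up, to 3.46%.

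SLC6A6 was the other member with an unadjusted p under 0.05, where 5.04% of all tested genes had one. Its log2 fold change of -0.45 (SE 0.20, unadjusted p of 0.0391, edgeR adjusted p = 0.957) stayed within 1.5-fold. With voom and sample quality weights SLC6A6 was at -0.63 and was called, and without AFB1 replicate 4, its lowest library, it was at -0.26. The estimates furthest from 0 belonged to SLC6A11, at -1.20 (SE 0.62), and SLC1A4, at 0.98 (SE 0.49), and neither passed in edgeR. DESeq2 called both, SLC6A11 at -1.20 and SLC1A4 at 0.98. SLC6A11 was also called with limma on log2(FPKM + 1), at -0.96, with the compared groups alone, at -1.21, and without CON replicate 3 or AFB1 replicate 5. SLC1A4 was also called with all 15 libraries, at 1.04, and without CON replicate 3, AFB1 replicate 3 or AFB1 replicate 5, but without AFB1 replicate 2 its log2 fold change was 0.19. The SLC6A11 estimate turned to 2.30 when the library labelled AFB1 replicate 1 was put back.

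All 5 tested apical carriers had a lower estimate in AFB1 than in CON, with a median log2 fold change of -0.60, against 0.02 over all tested genes. SLC7A9 passed the thresholds, and the values of the others were -0.60 for SLC6A18, -0.60 for SLC6A20, -0.21 for SLC6A19 and -0.07 for SLC3A1. The tally was 4 of 5 without CON replicate 5, AFB1 replicate 3 or AFB1 replicate 4, when SLC3A1 was higher in AFB1, with medians of -0.27, -0.48 and -0.38, and 4 of 5 without both libraries with high leukocyte markers, when SLC6A19 was higher. Without AFB1 replicate 5 it was 5 of 5, with a median of -0.97. The sum of the proximal tubule markers ran from 1948 to 3715 in CON (median 2689) and from 1367 to 3725 in AFB1 (median 2227). The median was thus lower in AFB1, but the ranges overlapped. In AFB1_CUR the sum ran from 1472 to 3088, with a median of 2815, above that of CON. The part of this sum in the tally was not tested. The basolateral and heavy-chain members divided into 3 higher and 3 lower, between -0.42 for SLC7A7 and 0.27 for SLC7A5. Over all 30 tested members 14 were higher and 16 lower, with a median of -0.03.

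**Figure D3:**
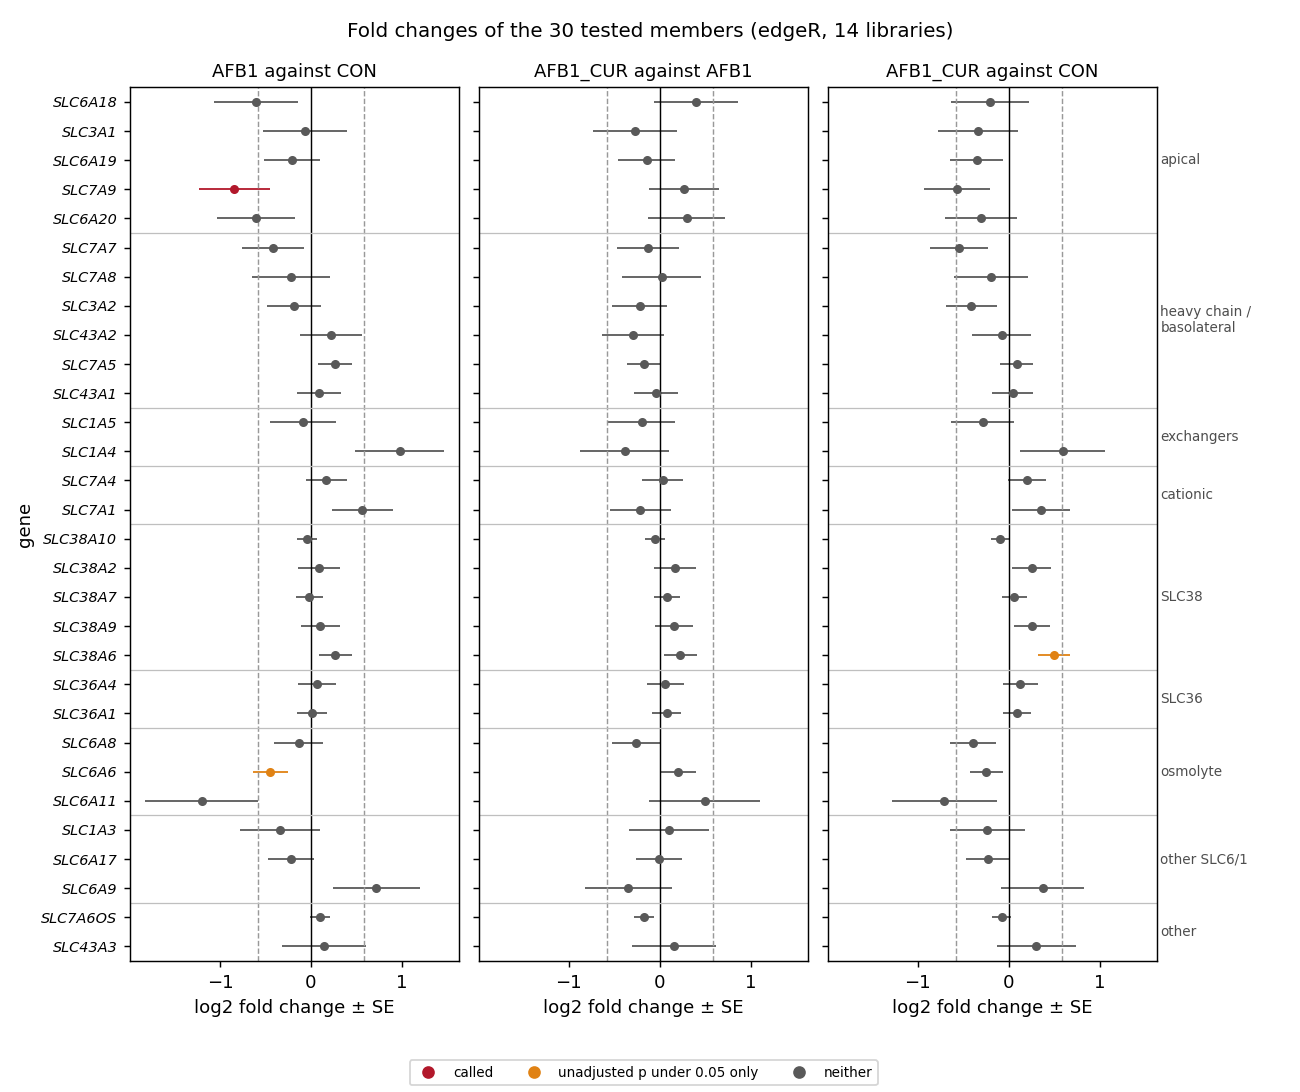
Log2 fold change with its standard error (edgeR, 14 libraries) for the 30 tested members in 3 comparisons, with dashed lines at a fold change of 1.5 in each direction. SLC7A9 at -0.84 in AFB1 against CON is the called value, SLC6A6 and SLC38A6 had an unadjusted p under 0.05 within 1.5-fold, and the 5 apical carriers lie below 0 in both comparisons with CON, although in AFB1_CUR against CON SLC6A18 was above 0 with limma on FPKM, and SLC6A18 and SLC6A20 with voom weights.

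When CUR was added to AFB1, no member passed the thresholds. Between AFB1_CUR and AFB1, edgeR's quasi-likelihood test called 0 of 30 members, where 0.935% of all tested genes were called, 0.41% as higher and 0.524% as lower. No member had p under 0.05 before adjustment (0 of 30), where 2.3% of all tested genes did. DESeq2 and limma on FPKM also called 0, while voom with sample quality weights called 1, SLC6A18, with 2.55% of all tested genes called. In edgeR SLC6A18 was the 1 member called without AFB1 replicate 5, with 1.68% of all tested genes called. Of the 30 members, 15 were higher and 15 lower in AFB1_CUR, with a median log2 fold change of 0.00 and a range of -0.38 to 0.50. SLC7A6OS had the smallest p, with a log2 fold change of -0.18 (SE 0.11, unadjusted p of 0.130 in edgeR). SLC7A9, at 29.0 ± 11.7 FPKM in AFB1_CUR (SD, n = 5), had a log2 fold change of 0.27 against AFB1 (SE 0.39), and SLC6A6, at 22.5 ± 2.05, one of 0.20 (SE 0.19). For both, the AFB1_CUR and AFB1 libraries overlapped.

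Between AFB1_CUR and CON, edgeR's quasi-likelihood test called 0 of 30 members, where 1.63% of all tested genes were called, 1.05% as higher and 0.577% as lower. DESeq2, limma on FPKM and voom with sample quality weights called 0 as well. One member, SLC38A6, had an unadjusted p under 0.05, where 5.49% of all tested genes had one. SLC38A6 measured 1.85, 1.86, 2.69, 1.82 and 2.14 in CON, 2.47, 2.70, 2.64 and 2.22 in AFB1, and 3.93, 3.69, 2.97, 2.42 and 2.39 in AFB1_CUR. CON replicate 3 lay above 2 AFB1_CUR libraries and the remaining CON libraries lay below all of them. The log2 fold change of SLC38A6 was 0.50 (SE 0.17, unadjusted p of 0.0128, edgeR adjusted p = 0.823), within 1.5-fold. Without CON replicate 3 it was 0.61 and SLC38A6 was the 1 member called, with 1.6% of all tested genes called.

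SLC7A7 and SLC7A9 had log2 fold changes of -0.55 (SE 0.32) and -0.57 (SE 0.36) in AFB1_CUR against CON, and neither passed. Without AFB1_CUR replicate 1, SLC7A7 was at -0.79 and was the 1 member called, with 2.33% of all tested genes called. Without AFB1_CUR replicate 2, SLC7A7 was at -0.34 and SLC7A9 at -0.34, and without CON replicate 5 SLC7A9 was at -0.30. The 5 apical carriers were again lower, with a median of -0.34, but this comparison uses the same CON libraries as the one of AFB1 with CON and does not stand on its own. The tally became 2 of 5, with a median of 0.01, when CON replicate 5 was left out, 4 of 5 with limma on FPKM and 3 of 5 with voom and sample quality weights. In none of the 3 comparisons did a member have groups without overlap in FPKM, where 1.54%, 0.676% and 0.722% of all tested genes did. After Benjamini-Hochberg adjustment over all tested genes, edgeR, DESeq2 and limma gave 0 members in each comparison. Of all 13162 tested genes, edgeR and limma also gave 0 in each comparison. DESeq2 gave 17 genes in AFB1 against CON, 3 in AFB1_CUR against AFB1 and 1 in AFB1_CUR against CON. A count of 0 members therefore does not set the transporters apart. The standard errors of the 30 members ran from 0.10 to 0.62, so the smallest difference that could be detected was not the same for each.

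The partners and peptidases that work with the carriers were listed alongside. Of 12 such genes, among them CLTRN, the peptide and aromatic amino acid carriers SLC15A2 and SLC16A10, the peptidases ANPEP, ENPEP and DPEP1 and the scaffold PDZK1, 10 were tested. All 10 had a lower estimate in AFB1 than in CON, with a median log2 fold change of -0.29 (9 of 10 with voom weights, when ENPEP was higher), and 1 passed. Of all tested genes 53.4% had a higher estimate in AFB1, with a median of 0.02, and 1.76% were called, 1.11% as lower. The tally was 7 of 10, with a median of -0.10, without CON replicate 5, when ENPEP, SLC15A2 and SLC16A10 were higher, and also 7 of 10 without AFB1 replicate 2, with a median of -0.17. Without AFB1 replicate 5 it was 10 of 10, with a median of -0.68. The part of the proximal tubule marker sum, given above as lower in median in AFB1 (2227) than in CON (2689), was not tested here either. The gene that passed was ANPEP, the aminopeptidase of the brush border that releases amino acids from peptides. Its FPKM was 87.1, 97.8, 89.5, 156 and 218 in CON, 41.2, 89.4, 34.7 and 87.2 in AFB1, and 87.6, 52.4, 66.4, 38.9 and 62.4 in AFB1_CUR. The log2 fold change of ANPEP was -1.03 in AFB1 against CON (SE 0.38, unadjusted p of 0.0169, edgeR adjusted p = 0.957) and -1.14 in AFB1_CUR against CON (SE 0.36, unadjusted p of 0.00622, edgeR adjusted p = 0.823). AFB1 replicates 3 and 5 and AFB1_CUR replicate 1 lay just above the lowest CON library, and the other toxin-fed kidney libraries were below all CON libraries. The first of these calls was lost without CON replicate 5, at -0.76, without AFB1 replicate 2 or 4, at -0.85 and -0.83, and without both libraries with high leukocyte markers, at -0.84, with unadjusted p of 0.0537 to 0.0597 in edgeR.

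Of 10 genes of the cellular response to amino acid shortage (ATF4, ATF3, ASNS, CHAC1, TRIB3, DDIT3, DDIT4, PSAT1, PHGDH and SESN2), 9 were tested, and 5 were higher and 4 lower in AFB1 than in CON. ATF4, the factor that switches on this response and several SLC7 genes, had a log2 fold change of 0.02, and ASNS, its target that makes asparagine, one of -0.01. The stress-induced factor ATF3 passed as lower, at -0.81 (SE 0.29, unadjusted p of 0.0152, edgeR adjusted p = 0.957). It was the 1 gene of the 9 called, where 1.76% of all tested genes were called. The ATF3 call rests on CON replicate 3, which had an FPKM of 11.1 against 4.02 to 5.64 in the other CON libraries, and without it the value was -0.44. With limma on log2(FPKM + 1), at -0.58, and with all 15 libraries, at -0.56, ATF3 did not pass either. In AFB1_CUR against CON, ATF3 was at -0.72 and called, and the call was lost without that library, at -0.35, and with limma on log2(FPKM + 1) or log2(FPKM + 0.1), at -0.45 and -0.53. In AFB1_CUR against AFB1, 0 of these 9 genes and 0 of the 10 partner genes were called by edgeR, where 0.935% of all tested genes were. At an unadjusted p under 0.05 there were 0 as well, where 2.3% of all tested genes had one. These counts do not set the lists apart.

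Carriers and their partner proteins were compared across the 14 kidney libraries on log2(FPKM + 1), in 9 pairs whose genes are both in the table. In a permutation test, two-sided, with 100000 resamples, 8 pairs had a Benjamini-Hochberg adjusted p under 0.05. The marker sums of tubule and leukocytes given above differed between these libraries. The part of cell content in such relations was not tested, so they do not single out the partners. For SLC3A1 and SLC7A9, Pearson's r was 0.64 (permutation p = 0.0130, adjusted p = 0.0195) with Spearman's rho 0.65 (permutation p = 0.0142, adjusted p = 0.0213), and r was 0.48 (permutation p = 0.113) without the 2 libraries farthest from the median of SLC3A1, AFB1 replicate 4 and AFB1_CUR replicate 2. Leaving out 1 library at a time, this pair passed in 12 of 14 fits, the exceptions being those without CON replicate 5 and without AFB1_CUR replicate 2, and it did not pass with all 15 libraries. The plot of this pair shows AFB1 replicate 2 away from the rest, with SLC3A1 at 131 FPKM and SLC7A9 at 16.1. Without it and AFB1_CUR replicate 2, r was 0.76 (permutation p = 0.00307).

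The light chains of SLC3A2 went in both directions. SLC7A7 and SLC7A8, the light chains of the tubule, went with SLC3A2. For SLC7A7, r was 0.80 (permutation p = 0.000570, adjusted p = 0.00155), with rho 0.76 (permutation p = 0.00230, adjusted p = 0.00690). For SLC7A8, r was 0.80 (permutation p = 0.000690, adjusted p = 0.00155), with rho 0.74 (permutation p = 0.00373, adjusted p = 0.00839). SLC7A6 and SLC7A5, which are used by many cell types, ran against SLC3A2. For SLC7A6, r was -0.80 (permutation p = 0.000520, adjusted p = 0.00155), with rho -0.68 (permutation p = 0.00969, adjusted p = 0.0174). For SLC7A5, r was -0.59 (permutation p = 0.0251, adjusted p = 0.0322), with rho -0.55 (permutation p = 0.0453, adjusted p = 0.0582). The 2 libraries farthest from the median of SLC3A2 were AFB1 replicate 2 and AFB1_CUR replicate 2, those with the high leukocyte markers. Without them r was 0.59 for SLC7A7, 0.63 for SLC7A8, -0.63 for SLC7A6 and -0.47 for SLC7A5. The permutation p was then 0.0435, 0.0276, 0.0298 and 0.126 in the same order, and after adjustment over the 9 pairs SLC7A8 and SLC7A6 passed while SLC7A7 and SLC7A5 did not. Leaving out 1 library at a time, the SLC7A5 pair passed in 10 of 14 fits, and the other 3 pairs in all 14.

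CLTRN followed SLC6A20 most closely, with r of 0.88 (permutation p = 3.0e-05, adjusted p = 0.000270), rho of 0.93 (permutation p = 2.0e-05, adjusted p = 0.000180) and r of 0.86 without the 2 farthest libraries. With SLC6A18, r was 0.76 (permutation p = 0.00144, adjusted p = 0.00259), rho 0.89 (permutation p = 4.0e-05, adjusted p = 0.000180) and r 0.83 without the 2 farthest libraries. With SLC6A19, r was 0.56 (permutation p = 0.0352, adjusted p = 0.0396), with rho 0.38 (permutation p = 0.181, adjusted p = 0.198), and r was 0.28 (permutation p = 0.388) without the 2 farthest libraries, again those with high leukocyte markers. This pair passed in 6 of 14 fits with 1 library left out, and the pairs of CLTRN with SLC6A20 and SLC6A18 in all 14. The osmolyte carriers SLC6A6 and SLC6A12 did not pass over the 14 libraries, with r of -0.22 (permutation p = 0.354, adjusted p = 0.354), with rho of -0.37 (permutation p = 0.198, adjusted p = 0.198). For this pair r was 0.12 without the 2 libraries farthest from the median of SLC6A6, and -0.69 (permutation p = 0.0124) without AFB1 replicate 2 and AFB1_CUR replicate 2. It passed after adjustment there and without AFB1 replicate 2 alone, the library in which SLC6A12 was highest. With the group means removed, r stayed between 0.55 and 0.88 in size for the 8 pairs, and was 0.02 for SLC6A6 and SLC6A12.

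**Figure D4:**
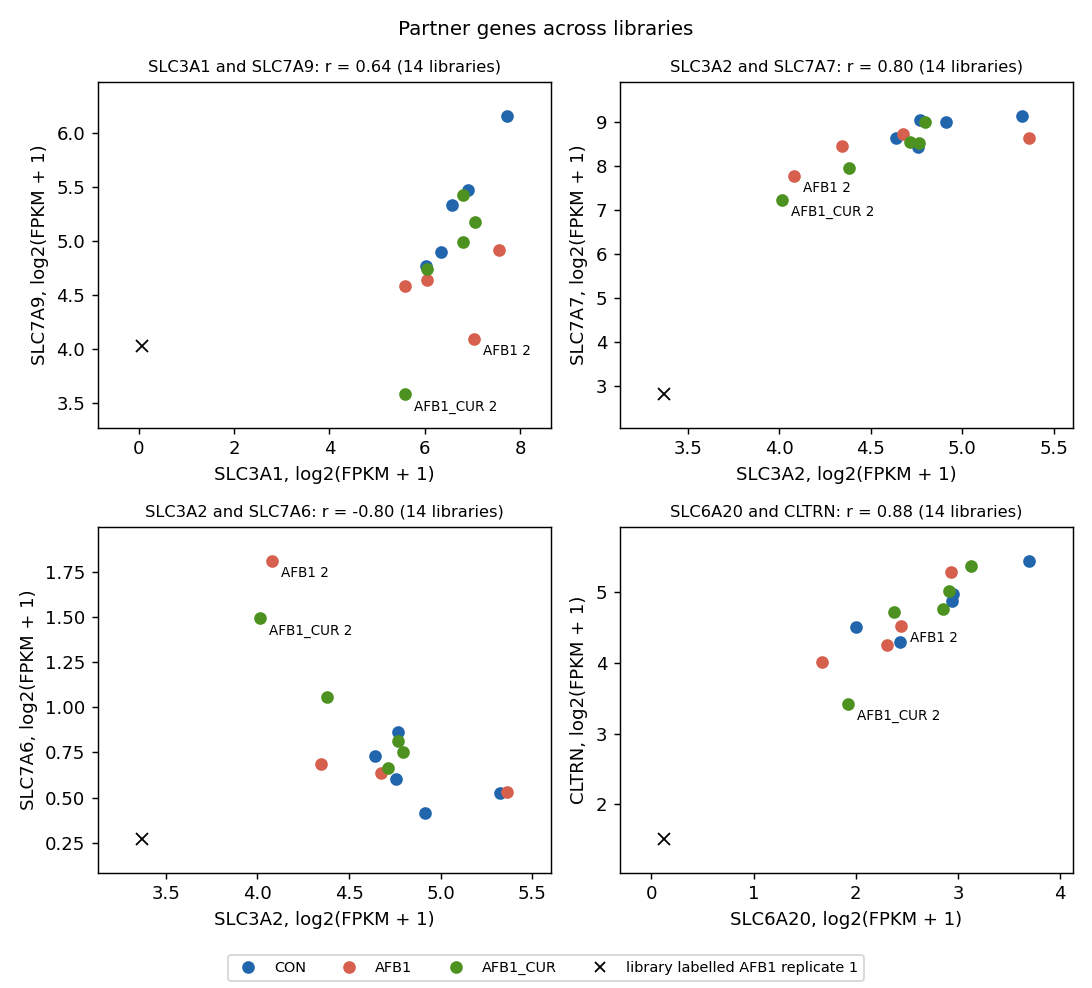
Partner genes plotted against each other on log2(FPKM + 1), with 1 point per kidney library coloured by group and a cross for the library labelled AFB1 replicate 1. SLC7A7 rises and SLC7A6 falls with SLC3A2 (r of 0.80 and -0.80 over 14 libraries), and the cross in the first panel shows SLC7A9 present with almost no SLC3A1.

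The library labelled AFB1 replicate 1 carried a different set of transporters. It has no replicate of its kind, so its values are a description with no test. A member was counted when its ratio on log2(FPKM + 1) to the median of the 14 kidney libraries was at least 2-fold and its value lay outside their range. Of the 38 members with an FPKM of at least 1 in some library, 24 met this, 7 higher and 17 lower, where 7.68% of 15298 genes were higher and 22.6% lower by the same rule (30.3% in either direction). This filter counts the library itself, and SLC38A4 passed it only there. With the filter on the 14 kidney libraries alone, 23 of 37 members met the rule, 6 higher and 17 lower, where 5.34% and 23.3% of 14858 genes did.

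Carriers known from hepatocytes were among the members that were higher there. SLC38A4, a sodium-coupled carrier of the liver, had an FPKM of 49.3, against 0 to 0.408 in the kidney libraries, and SLC7A2, the cationic amino acid carrier of the liver, 17.4 against 0.512 to 1.86. SLC6A11 measured 81.6 against 0.679 to 10.6, and SLC43A1, a facilitated carrier of neutral amino acids, 36.3 against 2.76 to 8.96. SLC43A3, a carrier of purine nucleobases, measured 13.8 against 1.08 to 9.54, SLC38A7 12.1 against 3.49 to 5.99, and SLC7A10 2.99 against 0.0748 to 2.75. The last of these was therefore just above the highest kidney library, AFB1_CUR replicate 2.

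Several carriers of the tubule were at or near a count of 0 in it. SLC6A18 and SLC7A8 had a count of 0, which with a floor of 3 counts made them at least 12275-fold and 2953-fold lower than the kidney median in depth-scaled counts. SLC3A1 had a count of 8 and an FPKM of 0.0414, and SLC6A19 a count of 7 and an FPKM of 0.0325. SLC7A7 was at 6.05, SLC1A5 at 1.87, SLC43A2 at 0.670 and SLC6A8 at 2.29, each below the lowest kidney library. By role, 4 of 6 apical and 5 of 8 heavy-chain and basolateral members with a level were lower, and 2 of the latter, SLC43A1 and SLC7A10, were higher.

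SLC7A9 did not follow its heavy chain in that library. It had a count of 3180 and an FPKM of 15.4, within the kidney range of 10.998 to 70.5, beside an SLC3A1 count of 8. The heavy chain SLC3A2 was at 9.32, below the kidney range of 15.2 to 40.1, while its tubular partner SLC7A8 was at 0. SLC38A2 at 11.5, SLC38A9 at 2.51, SLC7A1 at 0.765, SLC1A4 at 1.91 and SLC6A9 at 1.33 lay within the range of the kidney libraries, as did SLC7A6OS at 14.9.

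**Figure D5:**
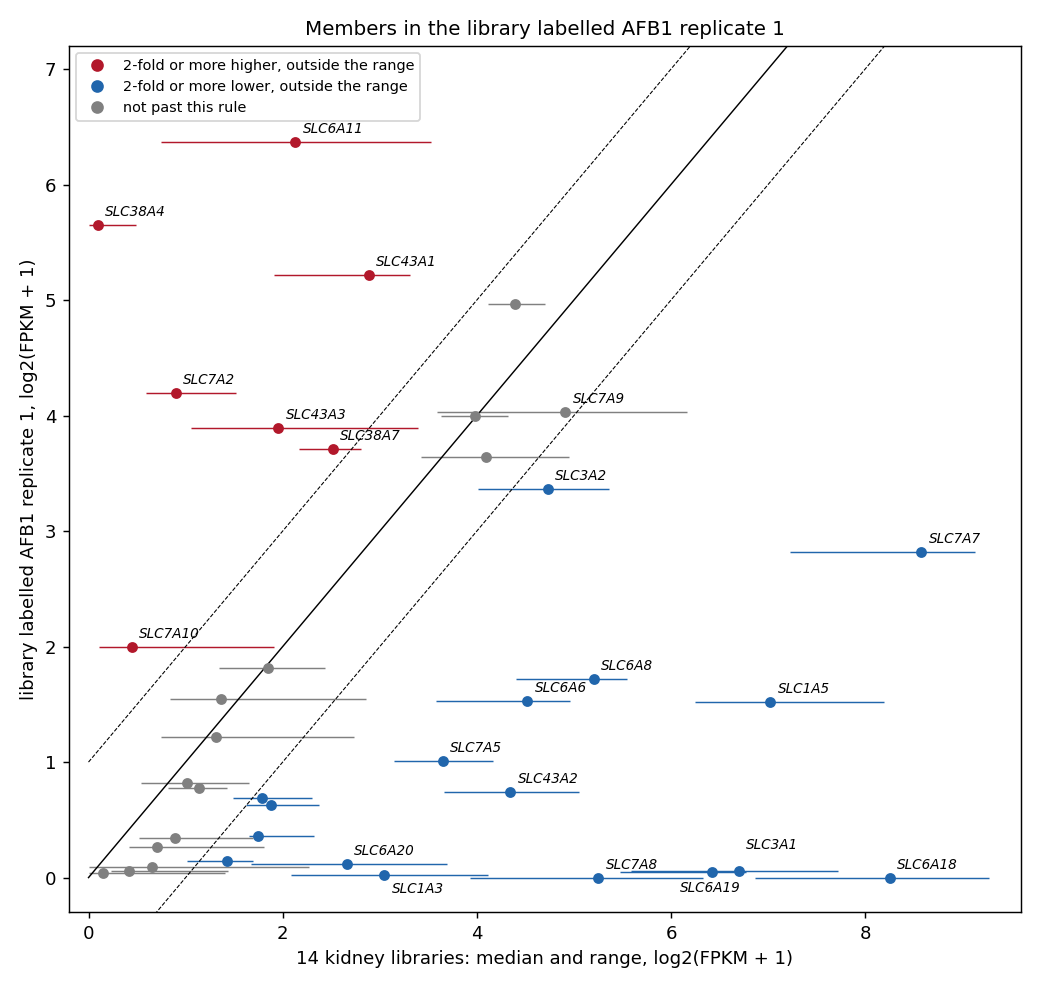
Members in the library labelled AFB1 replicate 1 (vertical axis) against the median of the 14 kidney libraries (horizontal axis, bars give their range), both as log2(FPKM + 1), with the line of equality and dashed lines at 2-fold. SLC6A18, SLC3A1, SLC6A19 and SLC7A8 lie at the bottom right, and SLC6A11, SLC38A4, SLC43A1 and SLC7A2 lie at the upper left.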

How the data were processed

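Paired-end libraries of kidney RNA were trimmed, aligned and counted by the authors; the submitters' processing notes name cutadapt 1.9, HISAT2 2.2.1 and StringTie 2.1.6, and for the genome build and the strand setting of the counting, nothing is given in the sources used here. The authors deposited raw read counts per gene and FPKM values, which are normalized for gene length and depth. Libraries were grouped by their titles, because the treatment field of the labels counts upward within a group. Counts were tested with edgeR 4.0.16 (R 4.3.3; quasi-likelihood test, TMM normalization, 1 model for the 3 groups) over genes that reached an FPKM of 1 in 5 or more of 14 libraries, with the library labelled AFB1 replicate 1 left out. The thresholds of p under 0.05 and a fold change over 1.5 follow the study's methods. DESeq2 1.42.0, limma 3.58.1 on log2(FPKM + 1) and log2(FPKM + 0.1), voom weights, other normalization, no filter, the replicate number as a block and leaving out each library were alternatives. The edgeR script was tested on simulated data. Genes were named when called in a comparison, when among the 15 highest medians, when in a partner pair, when among the 8 largest ratios in either direction in the library labelled AFB1 replicate 1, or when having the smallest p of a comparison, and other members are given by level, some of them picked after their values were seen. The pathway genes ANPEP and ATF3 were named because they were called. The members and lists were chosen with earlier results of these data known. SLC7A13, GGT1 and SLC22A6 were not matched by symbol and were not analysed here, so 9 of 10 listed partner pairs were run. Counting error is small at these depths, and low FPKM values rest on few reads. Values of some single genes that entered the counts over lists are not reported here. The filter on the kidney libraries alone, for the library labelled AFB1 replicate 1, was chosen after the data were seen.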

Additional observations from a re-analysis of the deposited data

Results flagged for a closer look

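In 9 of the 90 sets of libraries of a group and a tested member, 1 library lay far from the others of its group by Dixon's criterion. For normally distributed values the criterion flags about 5% of sets, but here it was applied to FPKM. The share over all tested genes was not computed, so the count does not set the transporters apart. Of the 9 sets, 5 were in AFB1_CUR replicate 2, the library with the highest leukocyte marker sum. There SLC38A2 was at an FPKM of 29.9 (15.2 to 17.2 in the other AFB1_CUR libraries), SLC43A3 at 9.54 (2.71 to 2.91), SLC1A4 at 5.08 (1.13 to 1.58), SLC38A9 at 4.42 (2.202 to 2.76) and SLC6A9 at 3.80 (1.18 to 1.85). In AFB1 replicate 2, SLC1A4 was at 6.27 (1.15 to 1.63 in the other AFB1 libraries) and SLC7A4 at 4.01 (2.19 to 2.42). In CON replicate 5, SLC1A3 was at 16.3 (5.36 to 7.41), and in CON replicate 1, SLC6A17 was at 1.02, below the other CON libraries (1.84 to 1.93). The part of leukocyte content in these values was not tested.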

How the results depend on the processing

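For AFB1 against CON the number of members called was 1. It was 0 by adjusted p, where 0 of all tested genes passed, and with size factors by relative log expression, where 1.74% were called. It was also 0 without AFB1 replicates 1 and 2 and AFB1_CUR replicate 2 (chosen after the data were seen), where 1.94% were called. It was 2 with limma on log2(FPKM + 1) (SLC6A11 and SLC7A9, with 0.798% of all tested genes called), with voom weights (SLC6A6 and SLC7A9, 2.32%) and with only the compared groups (SLC6A11 and SLC7A9, 2.04%), and 3 with DESeq2 (SLC1A4, SLC6A11 and SLC7A9, 2.13%). It was 4 with all 15 libraries (SLC1A4, SLC43A1, SLC7A2 and SLC7A9, 4.84%) and with no filter (SLC1A2, SLC38A5, SLC7A3 and SLC7A9, 3.41%), against 1.76% for the reported count. Leaving out 1 library gave 0 to 8, with 8 without AFB1 replicate 5 (3.46%). For AFB1_CUR against AFB1 the number was 0, and 3 with all 15 libraries (SLC43A1, SLC6A11 and SLC7A2, 3.98%) or no filter (2.78%), 1 with voom weights (SLC6A18, 2.55%) and 0 to 1 leaving out 1 library. For AFB1_CUR against CON it was 0, and 5 with no filter (3.65%) and 0 to 1 leaving out 1 library. The SLC6A11 log2 fold change of AFB1 against CON turned to 2.30 with all 15 libraries, and that of SLC3A1 ranged from -0.57 to 0.28 leaving out 1 library (0.28 without CON replicate 5, 0.13 without AFB1 replicate 3, 0.18 without AFB1 replicate 4). Of the 9 partner pairs, 8 passed, 5 with all 15 libraries, and 5 to 9 leaving out 1 library (5 without CON replicate 5 or AFB1_CUR replicate 2). The cause of these moves was not tested.

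The labels give no shared animal or day to a replicate number. Deviations from the group means correlated over 0.1 in 7 of 13 same-numbered pairs (median 0.12, -0.31 to 0.60) and in 15 of 52 differently numbered pairs (median -0.03), and since not every same-numbered pair was over 0.1, the numbers were not used to pair the libraries. With the replicate number as a block, 1 member was called in AFB1 against CON (1.73% of all tested genes), 0 in AFB1_CUR against AFB1 (1.14%) and 2 in AFB1_CUR against CON (SLC7A7 at -0.69 and SLC7A9 at -0.63, with 2.14% of all tested genes called).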

Other observations

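A further light chain that pairs with SLC3A1, SLC7A13, is not listed by its symbol, but 2 of the 3 genes that the file describes as similar to it were well above 0 in kidney. LOC105610833 had an FPKM of 14.5 to 151 (median 57.5) in the 14 kidney libraries and LOC101114368 one of 11.6 to 47.1 (median 25.4), and both were at 0 in the library labelled AFB1 replicate 1. The highest value of LOC105610833, 151, was in AFB1 replicate 2, the library in which SLC3A1 was at 131 and SLC7A9 at 16.1. LOC101114368 was at 25.7 there, near its median. In CON replicate 5, where SLC7A9 had its highest value of 70.5, LOC105610833 was at 140. These genes were chosen after their values were seen, no test was run on them, and near-identical copies can share reads. The same limit holds for SLC7A3, which was at 0 or close to it, while 4 of 27 genes described as similar to it had a median FPKM of at least 1, the highest being LOC101112843 and LOC101112084, at 4.16 and 3.26.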
